A study of Mus musculus with 12 samples.

Results

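The ventricles of ligated mice given liproxstatin-1 were set against those of sham-operated mice, to show which part of the response to ligation remained under the compound. Members were chosen by group label alone: the 3 Lip-1+MI samples and the 3 Sham samples, 6 of 12 samples in all, with every gene that passed a filter on low counts. Sham samples came from mice that carried no ligation and no compound. Lip-1+MI samples came from mice given liproxstatin-1 (Lip-1) at 3 mg per kg per day, starting 24 h before the left anterior descending coronary artery was tied. MI samples had that same ligation without a compound, and Fer-1+MI samples had ferrostatin-1 (Fer-1) at 1 mg per kg per day on the same schedule. All groups were male wild-type C57BL/6J mice of 6 to 8 weeks under pentobarbital, with 3 samples each. The labels name no vehicle, no collection time and no infarct zone, and do not say whether each sample is 1 animal, so the spread behind every p-value may be technical.

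Ferroptosis is a form of cell death in which iron drives the peroxidation of membrane phospholipids. The selenoenzyme GPX4 reduces lipid peroxides with glutathione, whose synthesis depends on cystine brought in by the SLC7A11 transporter, and ACSL4 supplies the polyunsaturated lipids that are peroxidised. Liproxstatin-1 is a radical-trapping antioxidant: it stops the lipid chain reaction itself and is not known as an inhibitor of transcription. In the infarcted heart, tissue short of oxygen activates hypoxia-inducible factors (HIF), and dying cells release signals that activate NF-kappaB, the transcription factor behind many cytokine and chemokine genes.

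Total counts were 60.1, 60.8 and 59.0 M counts in Lip-1+MI and 45.5, 49.0 and 58.7 M counts in Sham (M for mega). All 32623 genes of the count table carry the identifier prefix that Ensembl uses for rat, while the labels give mouse. The cause was not tested, and coordinates below are those of the files, whose build is not named. Against the ventricle label, the sarcomere genes Myh6 (1099 to 1199 FPKM) and Actc1 (5054 to 5934 FPKM) were high in Lip-1+MI, whereas myoglobin (Mb) was at 16.1 to 19.6 FPKM and muscle creatine kinase (Ckm) at 33.3 to 36.0 FPKM. The matrix gene Mgp stood at 4251 to 4473 FPKM and the secreted lipocalin Lcn2 at 2593 to 2888 FPKM in the same samples. Blood cell genes were near the bottom: Hbb was at 3.68 to 4.98 FPKM and S100a8 at 0.948 to 1.58 FPKM, and the T cell gene Cd3e had no counts in any sample, which allows at most 0.0663 CPM (3 counts in the smallest library, counting error only). How far these levels match whole ventricle with its blood was not tested, and ventricle is the labels' word. On the first principal component, which held 30.9% of the variance, Lip-1+MI samples lay at 16.0 to 17.3, MI samples at 20.8 to 26.4 and Sham samples at -61.5 to -52.2.

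Under liproxstatin-1, ligated ventricle still differed from Sham in a large share of its genes. Cytokine, chemokine, NF-kappaB, hypoxia and glycolysis genes were higher than in Sham and mostly did not pass the test between Lip-1+MI and MI. Genes of sterol synthesis, of lysosomes and of the cell cycle mostly differed between Lip-1+MI and MI, and their medians in Lip-1+MI lay near Sham. Cyp1a1, Aldh3a1 and Nqo1 were higher in Lip-1+MI than in both Sham and MI. Cyp1a1 was named among the largest rises over Sham and Aldh3a1 for its small p against MI, while Nqo1 is on the antioxidant list. Of 16910 genes tested with edgeR's quasi-likelihood test at an adjusted p of 0.05, 6556 differed between Lip-1+MI and Sham (38.8%), 3514 higher (20.8%) and 3042 lower (18.0%). At least 2-fold changes were fewer, 602 higher (3.56%) and 236 lower (1.40%). The split between higher and lower rests on scaling: with library size alone it was 1994 higher and 5909 lower, and the median over all genes moved from -0.02 to -0.19. No gene called under both scalings changed sign.

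The difference in response between ligation with and without the compound is the comparison of Lip-1+MI with MI, in which 1031 genes passed (6.10%), 515 higher (3.05%) and 516 lower (3.05%). By at least 2-fold, 24 were higher (0.142%) and 14 lower (0.0828%). The count fell to 661 without MI replicate 3, to 687 without Lip-1+MI replicate 1 and to 673 without Lip-1+MI replicate 3. Ligation without the compound gave 7369 genes against Sham (43.6%), with 22.8% of tested genes higher and 20.8% lower. The comparisons of Lip-1+MI and of MI with Sham share the 3 Sham samples, so their values are set side by side below and their overlap is not given. In bulk tissue, a lower value from fewer cells of a type and one from less RNA per cell cannot be told apart.

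**Figure D1:**
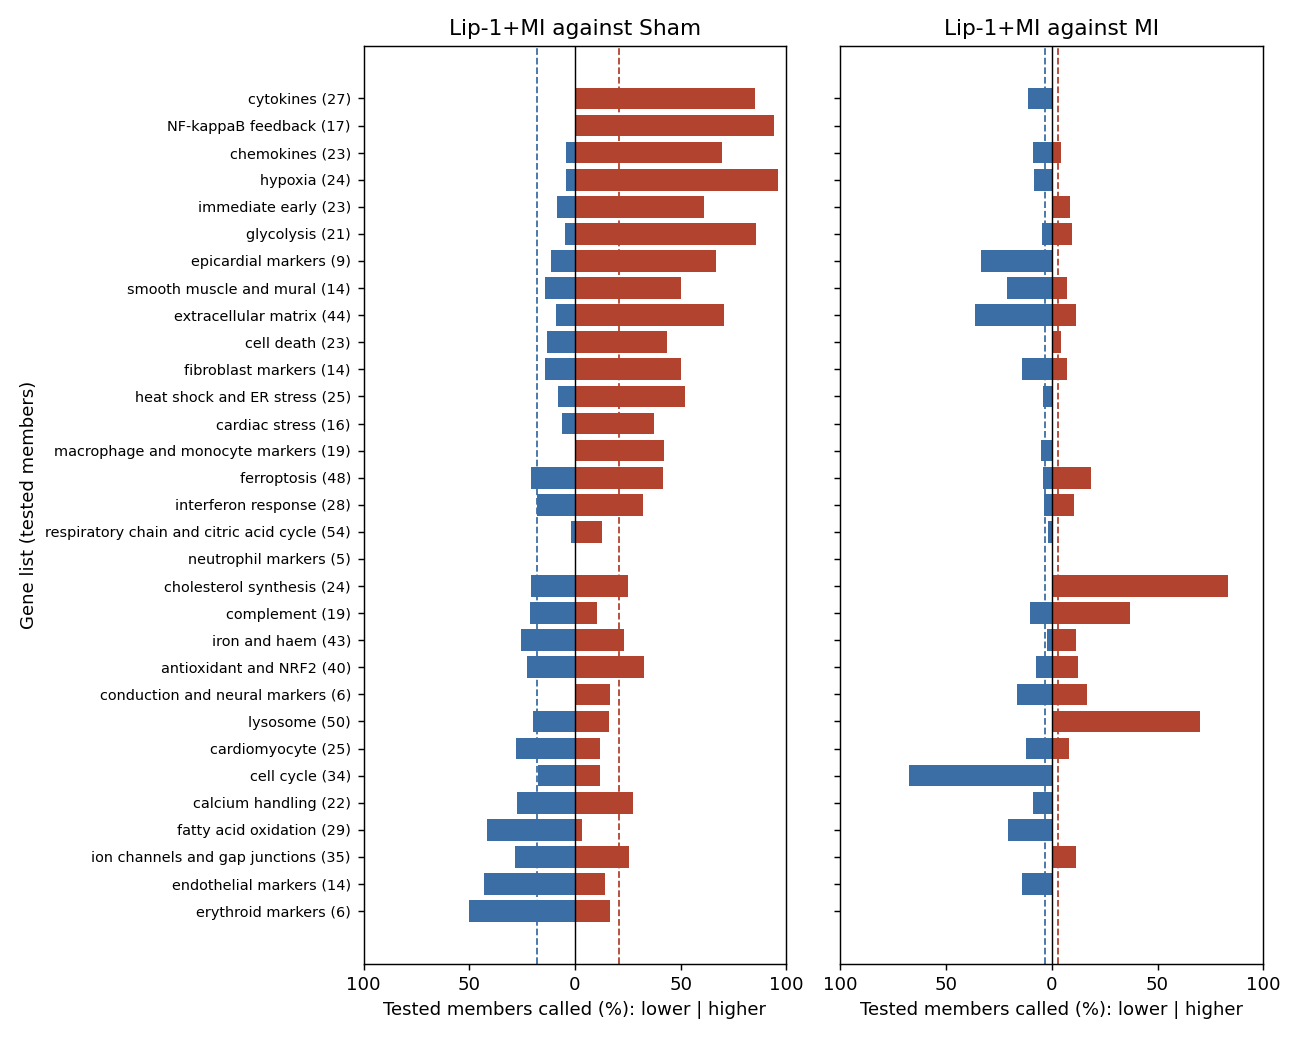
Share of tested members of each gene list called higher (red, right) or lower (blue, left) in Lip-1+MI against Sham and against MI, in percent of the number in brackets; dashed lines give the share over all tested genes (20.8% and 18.0% on the left panel, 3.05% each way on the right). Cytokine, NF-kappaB and hypoxia bars are long on the left panel and short on the right, and those of cholesterol synthesis, lysosome and cell cycle are long on the right.

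Of the 10 largest rises among called genes with a symbol, at least 5 CPM and no overlap with Sham, the cytochrome P450 gene Cyp1a1 (4.05) was ninth by fold and the others were genes of inflammation. Of 28 listed cytokine and adhesion genes, 27 passed the filter, and 23 of these rose and none fell in edgeR (0 at an unadjusted p under 0.05, 0 with DESeq2 and 1 with limma on FPKM), with a median log2 fold change of 2.49 against -0.02 over all genes. Acod1, which makes the macrophage metabolite itaconate, lay on chromosome 15 at 93612971 to 93622358 on the plus strand (ENSRNOG00000009919) and overlaps the model of Mycbp2. In CPM (counts per M counts of the TMM-scaled library) the Sham samples held 0.728, 1.81 and 2.69, the MI samples 54.7, 56.8 and 53.0, and the Lip-1+MI samples 59.9, 59.1 and 59.7. All 3 Lip-1+MI values lay above every Sham value, as the rule for naming these rises required. The fold change of 5.05 ± 0.26 (log2, SE) was the largest among the named genes (adjusted p = 2.3e-07, edgeR). Il1b, the pyrogenic cytokine interleukin-1 beta, was at 4.25, 10.7 and 11.1 CPM in Sham and 219, 210 and 194 CPM in Lip-1+MI, and rose by 4.56 ± 0.28. Its MI values of 226, 236 and 220 CPM lay just above those under the compound, and the difference between Lip-1+MI and MI was -0.13 ± 0.23 (adjusted p = 0.83, edgeR).

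Nos2, the inducible nitric oxide synthase, stood at 12.2, 41.3 and 37.6 CPM in Sham, 637, 598 and 725 in MI, and 920, 771 and 833 in Lip-1+MI, a rise over Sham of 4.78 ± 0.41. Sham replicate 1 was the lowest of its group for Nos2 as for Acod1 and Il1b, and the groups did not overlap, a condition of their being named. The granulocyte growth factor Csf3 rose from 2.35, 6.99 and 5.87 CPM to 137, 131 and 146 CPM, by 4.75 ± 0.28. Csf2, which drives growth of granulocytes and macrophages, rose by 4.71 ± 0.50 from at most 0.907 CPM to between 14.2 and 14.6 CPM. Ptgs2, the inducible cyclooxygenase and a marker often read in ferroptosis, rose by 4.19 ± 0.25, from 11.8, 24.8 and 20.9 CPM to 361, 323 and 373 CPM. It lay above all 3 MI samples (223, 262 and 291 CPM), although the difference from MI missed the threshold (0.45 ± 0.21, adjusted p = 0.31, edgeR). The endothelial adhesion genes Sele, Icam1, Vcam1 and Selp rose by 4.18, 3.33, 2.66 and 2.23.

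Members of the cytokine list that did not pass against Sham were Il12b (1.37), Il15 (-0.36), Il18 (0.40) and Il33 (0.13). Il33, an alarmin stored in the nucleus, was at 9.91, 10.7 and 11.2 CPM in Sham and 12.4, 11.6 and 10.9 CPM in Lip-1+MI, with overlapping groups, and at 17.6, 20.0 and 23.0 CPM in MI. It fell by 0.79 ± 0.10 against MI (adjusted p = 7.3e-05, edgeR). Tslp, an epithelial and stromal cytokine, fell by 0.90 ± 0.17 against MI and still rose by 1.78 over Sham, and Csf1, the macrophage growth factor, fell by 0.23 against MI. Those 3 were the cytokine genes that differed from MI.

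Chemokine genes followed the same pattern, with 16 of 23 tested members higher, 1 lower and a median of 1.25. Cxcl1, a neutrophil attractant, was at 64.6, 106 and 104 CPM in Sham, 759, 867 and 889 in MI, and 858, 877 and 901 in Lip-1+MI. It rose by 3.26 ± 0.18 over Sham and differed from MI by 0.07 ± 0.16 (adjusted p = 0.89, edgeR). Its relatives Cxcl2, Cxcl3 and Cxcl6 rose by 3.43, 2.83 and 4.04, and Ccl2, the main monocyte attractant, by 2.52. Ccl22 rose by 4.40 ± 0.42 from a low level, at most 0.375 CPM in Sham. Cxcl12, which retains leukocytes and progenitors in tissue, fell by 0.74. Against MI, Ccl11 and Ccl19 were lower by -0.54 and -0.83, and Cxcl11 was higher by 0.77.

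**Figure D2:**
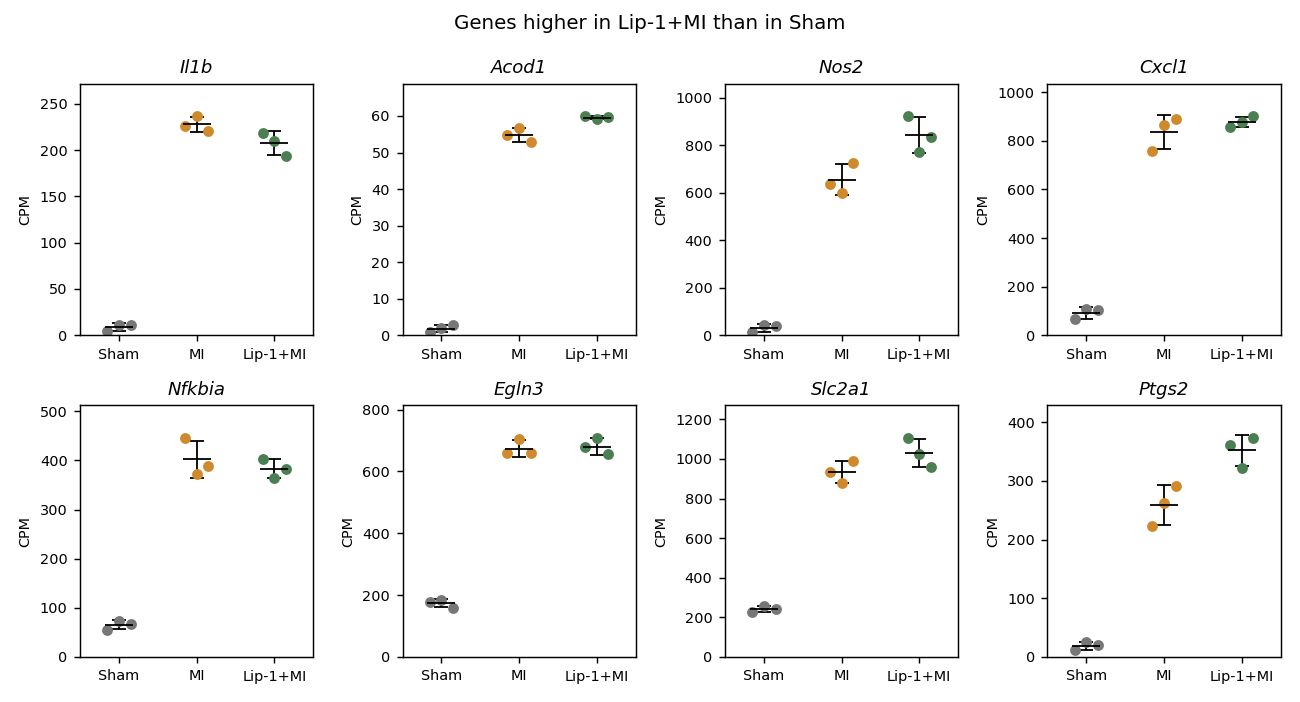
CPM (linear axis from 0) in each Sham, MI and Lip-1+MI sample for 8 genes of inflammation and low oxygen, with 3 points a group; horizontal marks are means and bars are SD. For Il1b the Sham points lie at 4.25 to 11.1 CPM and the Lip-1+MI points at 194 to 219 CPM, close to the MI points.

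NF-kappaB switches on its own inhibitors, and 16 of the 17 tested feedback genes rose, with a median of 1.62. None of the 17 differed between Lip-1+MI and MI in edgeR, with 0 at an unadjusted p under 0.05 and 0 with DESeq2 or limma on FPKM, although 17 tests that miss the threshold do not show equal levels. In edgeR Ikbke was also the only one not called against Sham (-0.14). Tnfaip3, the ubiquitin-editing enzyme A20, was at 19.0, 34.5 and 26.8 CPM in Sham and 385, 363 and 374 CPM in Lip-1+MI, a rise of 3.80 ± 0.18. Nfkbia, the inhibitor IkappaB alpha, went from 55.3, 72.9 and 67.1 CPM to 402, 364 and 383 CPM, a rise of 2.56 ± 0.11, with MI at 445, 373 and 389 CPM. The Lip-1+MI and MI values of Nfkbia overlapped. The ubiquitin ligase Birc3 and the NF-kappaB subunits Nfkb2 and Relb rose by 3.04, 2.11 and 1.76.

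Promoter letters of genes that moved together are shown for orientation, taken from RefSeq for the labelled organism, mouse (GRCm38.p6), by gene symbol. Each stretch lies upstream of the start site and is written 5′ to 3′ on the strand of the gene. A kappaB-like motif, GGANTTTCC on either strand, was searched in the 300 bases around each start. It was found in 4 of the 14 chemokine genes and 3 of the 14 feedback genes that have a RefSeq window, against 1.45% of 27025 genes. Capitals mark each match.
Cxcl1 (chr5:90891155-90891203, plus strand): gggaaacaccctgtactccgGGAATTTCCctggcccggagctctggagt
Cxcl2 (chr5:90903783-90903831, plus strand): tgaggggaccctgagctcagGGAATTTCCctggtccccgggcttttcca
Cxcl3 (chr5:90786009-90786057, plus strand): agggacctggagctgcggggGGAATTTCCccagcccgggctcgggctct
Nfkbia (chr12:55492648-55492845, minus strand): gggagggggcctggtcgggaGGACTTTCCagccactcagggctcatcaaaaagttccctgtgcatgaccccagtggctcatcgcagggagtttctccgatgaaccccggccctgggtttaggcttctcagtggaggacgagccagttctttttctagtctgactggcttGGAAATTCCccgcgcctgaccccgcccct
In Cxcl1, Cxcl2 and Cxcl3 the match reads in the direction of the gene, and Nfkbia has 2 matches, the one nearer the start on the opposite strand. The letters describe these windows and say nothing of binding in these samples.

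Genes induced by low oxygen stayed high under the compound. Of 24 hypoxia genes, all tested, 23 rose and 1 fell, with a median of 1.06. Slc2a1, the glucose transporter GLUT1, stood at 229, 259 and 241 CPM in Sham, 934, 876 and 989 in MI, and 1105, 1027 and 961 in Lip-1+MI, a rise of 2.08 ± 0.11 over Sham. Egln3, an oxygen-dependent hydroxylase that targets HIF to the proteasome, was at 178, 185 and 160 CPM in Sham and 678, 708 and 655 CPM in Lip-1+MI, a rise of 1.96 ± 0.05 (adjusted p = 1.2e-14, edgeR). MI values of Egln3 were 659, 705 and 659 CPM, so the ligated groups overlapped. Vegfa, the angiogenic growth factor, rose by 1.13 ± 0.09, and Bnip3, a mitophagy receptor, by 1.06. The hydroxylase Egln2 was the member that fell (-0.39). Car9, a carbonic anhydrase at the cell surface, and Loxl2, a collagen cross-linking oxidase, rose over Sham by 0.87 and 0.55 and were the 2 members that differed from MI, by -0.55 and -0.27. The letters ACGTG, the core of the HIF response element, occurred on either strand in the mouse windows of 17 of 21 hypoxia genes with a RefSeq entry and of 21.8% of all genes. The list was made of genes known to be induced by low oxygen, so its share may follow from that choice and says nothing of binding in these samples.

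Glycolysis genes rose with them, 18 of 21 higher and 1 lower, with a median of 0.53. Ldha, which turns pyruvate into lactate, was at 1344, 1389 and 1366 CPM in Sham, 2288, 2317 and 2176 in MI, and 2224, 2305 and 2199 in Lip-1+MI, a rise of 0.72 ± 0.04. Hk2, the inducible hexokinase, rose by 1.56, and the lactate exporter Slc16a3 by 1.26. Pfkm, the muscle phosphofructokinase, fell by 0.21, a call that was lost without any 1 of 5 of the 6 libraries (adjusted p = 0.0559 to 0.172, edgeR), the exception being Lip-1+MI replicate 2. Aldoc and the lactate and pyruvate transporter Slc16a1 were higher than in MI (0.45 and 0.24), and the muscle enolase Eno3 was lower (-0.80).

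Fatty acid oxidation moved the other way: 12 of 29 tested genes fell and 1, Ppara, rose, with a median of -0.12. Over all genes 18.0% fell and 20.8% rose. The Ppara call was lost with library size alone (adjusted p = 0.0669, edgeR), with limma on FPKM (0.0891 and 0.0910) and without Lip-1+MI replicate 2 or 3 (0.0562 and 0.0761, edgeR). Pdk4, which inhibits pyruvate dehydrogenase when fat is burned, was at 14.7, 13.3 and 14.9 CPM in Sham, 19.7, 14.9 and 16.2 in MI, and 7.15, 7.43 and 11.1 in Lip-1+MI. It fell by 0.74 ± 0.14 against Sham and by 0.98 ± 0.14 against MI (adjusted p = 0.0005, edgeR), and its Lip-1+MI values lay under those of both groups. The carnitine transferases Cpt1a, Cpt1b and Cpt2 fell by 0.70, 0.29 and 0.56 against Sham. Cpt1b, the muscle form, and the acyl-CoA enzymes Acsl1, Acaa2, Acadvl and Acadl were also lower than in MI, by -0.48, -0.36, -0.32, -0.27 and -0.23. MI against Sham gave 9 higher and 8 lower in this list. Respiratory chain and citric acid cycle genes mostly missed the threshold, with 7 of 54 higher and 1 lower, both shares below those over all genes, and with 3 or 4 higher without Sham replicate 1 or 2 or Lip-1+MI replicate 1 or 2. With library size alone the fatty acid list had 0 higher and 20 lower, and the respiratory list 1 higher and 19 lower.

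Sterol synthesis genes stood near Sham under the compound. Of 24 tested members, 6 were higher and 5 lower than Sham (median 0.05), shares close to those over all genes, while 20 were higher than MI and none lower in edgeR (0 also at an unadjusted p under 0.05, with DESeq2 and with limma; median 0.60 against -0.01 over all genes). Against Sham the split was 3 higher and 9 lower with library size alone, and without any 1 of the libraries other than Sham replicate 1 it held 1 to 3 lower. MI against Sham gave 2 higher and 18 lower in the same list (median -0.49). Sqle, the squalene epoxidase, was at 86.1, 89.6 and 84.1 CPM in Sham, 56.5, 57.9 and 60.6 in MI, and 90.4, 96.0 and 98.7 in Lip-1+MI. It rose by 0.70 ± 0.06 against MI (adjusted p = 5.2e-07, edgeR), and its value against Sham, 0.13 ± 0.05, missed the threshold (adjusted p = 0.061, edgeR), but passed on the 6 samples alone (0.0336) and without Lip-1+MI replicate 1 (0.0397). Hmgcs1, which makes HMG-CoA, was at 114, 129 and 125 CPM in Sham, 84.6, 86.1 and 88.2 in MI, and 119, 141 and 137 in Lip-1+MI. Its Lip-1+MI values overlapped Sham and lay above every MI value (0.62 ± 0.06).

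Insig1, which senses sterols and holds back the transcription factor SREBP, went beyond Sham, with 138, 160 and 142 CPM in Sham, 187, 177 and 180 in MI, and 302, 304 and 292 in Lip-1+MI. It rose by 1.03 ± 0.06 over Sham and by 0.72 ± 0.06 over MI. Msmo1, Fdps and Lss, further enzymes of the pathway, and Srebf2, the transcription factor that drives it, were also higher than Sham (0.37, 0.38, 0.25 and 0.22) and than MI (0.79, 0.60, 0.33 and 0.34). Dhcr7, which catalyses the last step to cholesterol, remained below Sham, at 22.5, 21.2 and 22.5 CPM against 32.5, 33.2 and 30.8, and above MI at 16.0, 13.7 and 12.8 CPM. Mvd, Nsdhl and Sc5d also fell against Sham, by 0.38, 0.25 and 0.21. The call of Mvd was lost without Sham replicate 2 or Lip-1+MI replicate 1 or 2 (adjusted p = 0.0533 to 0.135, edgeR), and that of Nsdhl without Sham replicate 2 or 3 or Lip-1+MI replicate 3 (0.0574 to 0.0888). Pmvk and Mvd were among the members not called against MI.

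**Figure D3:**
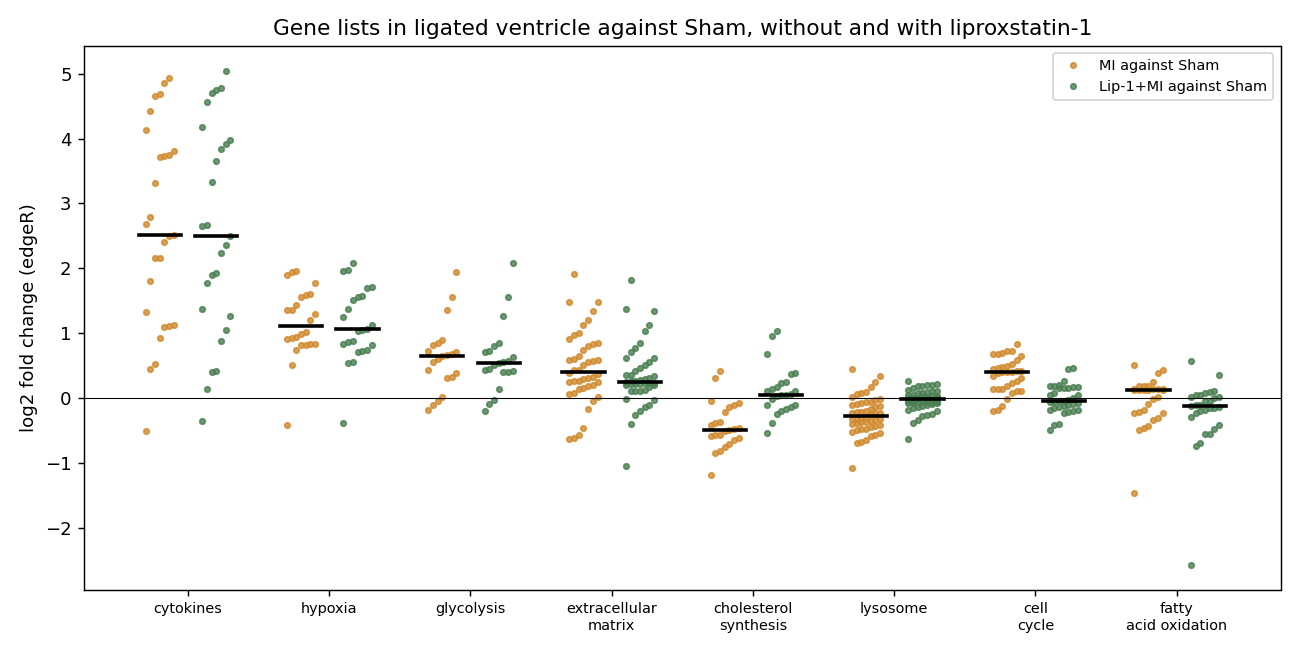
Log2 fold changes (edgeR) of the tested members of 8 gene lists in MI against Sham (orange) and in Lip-1+MI against Sham (green), which share the Sham samples; each point is a gene and each bar a list median. The medians of cytokines (2.51 and 2.49) and hypoxia (1.10 and 1.06) lie side by side, and those of cholesterol synthesis (-0.49 and 0.05), lysosome (-0.28 and -0.01) and cell cycle (0.40 and -0.05) lie apart.

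Lysosomal genes showed the same arrangement with smaller changes. Of 50 tested members, 8 were higher and 10 lower than Sham (median -0.01), near the 20.8% and 18.0% over all genes. Against MI 35 were higher (median 0.24), beside 3.05% over all genes. None was lower than MI in edgeR (3 at an unadjusted p under 0.05, 0 with DESeq2 and limma). MI against Sham gave 4 higher and 35 lower (median -0.28). Ctsl, the protease cathepsin L, was at 1323, 1453 and 1411 CPM in Sham, 1036, 996 and 975 in MI, and 1442, 1420 and 1477 in Lip-1+MI, a difference from MI of 0.53 ± 0.04 (adjusted p = 8.2e-07, edgeR). Its Sham and Lip-1+MI values overlapped. Lamp1, the main protein of the lysosomal membrane, was at 1126, 1162 and 1089 CPM in Sham, 847, 832 and 787 in MI, and 1105, 1093 and 1043 in Lip-1+MI. Acid glucosidase (Gaa), the ceramidase Asah1 and the peptidase Tpp1 were higher than in MI by 0.46, 0.52 and 0.44. Mcoln1, the lysosomal calcium channel, was between the groups, with 56.3, 54.2 and 55.2 CPM in Sham, 26.6, 29.1 and 22.2 in MI, and 36.8, 34.1 and 35.6 in Lip-1+MI. It fell by 0.64 ± 0.08 against Sham and rose by 0.45 ± 0.08 against MI. Tfeb, a transcription factor of lysosomal genes, passed neither test (-0.09 against Sham and -0.15 against MI). Against Sham the lysosome split depends on scaling, with 0 higher and 35 lower for library size alone, and 3 to 5 were higher without any 1 of the 6 libraries, whereas the count of 35 above MI was the same for library size alone.

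The palindrome TCACGTGA, the core of the CLEAR element bound by TFEB, was found in the windows of 7 of 41 lysosome genes with a RefSeq entry and in 1.12% of all genes. For sterol synthesis, the sterol response letters TCACNCCAC on either strand were in 1 of 16 genes with an entry and in 1.44% of all genes. The mouse windows below carry them in capitals, and here too the letters say nothing of binding in these samples.
Ctsd (chr7:142387899-142387946, minus strand): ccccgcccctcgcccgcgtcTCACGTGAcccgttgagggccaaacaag
Atp6v1a (chr16:44139364-44139411, minus strand): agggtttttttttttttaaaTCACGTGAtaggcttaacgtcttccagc
Mcoln1 (chr8:3500453-3500500, plus strand): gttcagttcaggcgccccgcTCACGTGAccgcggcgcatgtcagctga
Hmgcs1 (chr13:119690194-119690242, plus strand): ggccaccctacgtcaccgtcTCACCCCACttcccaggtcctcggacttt
Ctsd, the protease cathepsin D, was at 1485, 1553 and 1506 CPM in Sham, 1257, 1216 and 1203 in MI, and 1480, 1437 and 1428 in Lip-1+MI, and Atp6v1a, a subunit of the lysosomal proton pump, differed from MI by 0.20 ± 0.04.

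Cell cycle genes were also near Sham. Of 34 tested, 4 were higher and 6 lower than Sham (median -0.05), below the shares over all genes for the higher ones and near them for the lower ones, while 23 were lower than MI and none higher in edgeR (0 also at an unadjusted p under 0.05, with DESeq2 and with limma; median -0.39). MI against Sham gave 23 higher and 1 lower (median 0.40). Top2a, the topoisomerase of dividing cells, was at 46.7, 51.8 and 45.0 CPM in Sham, 75.0, 76.7 and 79.2 in MI, and 53.9, 50.5 and 54.7 in Lip-1+MI. It fell by 0.54 ± 0.08 against MI (adjusted p = 0.00021, edgeR), and its Lip-1+MI values overlapped Sham. Mki67, a marker of cells in cycle, was at 92.1, 94.8 and 90.8 CPM in Lip-1+MI, 99.9, 96.5 and 91.8 in Sham, and 125, 124 and 133 in MI. Cdk1, the mitotic kinase, fell by 0.51 against MI. Prc1 and Ccne2 remained above Sham by 0.45 and 0.46, but the call of Ccne2 was lost with library size alone (0.29, adjusted p = 0.0630, edgeR) and with limma on FPKM (0.0978 and 0.0874). Without Sham replicate 3 the list had 3 lower against Sham, and without Lip-1+MI replicate 1 it had 2. With library size alone the list had 1 higher and 17 lower against Sham and the same 23 lower count against MI.

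The aryl hydrocarbon receptor is a ligand-activated transcription factor that induces enzymes of xenobiotic metabolism. Cyp1a1, its classic target and a cytochrome P450, was at 0.526, 1.13 and 0.751 CPM in Sham, 0.398, 1.14 and 0.639 in MI, and 10.3, 13.5 and 16.2 in Lip-1+MI. It rose by 4.05 ± 0.32 over Sham (adjusted p = 6.6e-08, edgeR) and by 4.16 ± 0.32 over MI. Aldh3a1, an aldehyde dehydrogenase, was at 2.20, 3.72 and 3.58 CPM in Sham, 1.68, 0.916 and 1.04 in MI, and 11.4, 14.4 and 15.9 in Lip-1+MI, a rise of 2.13 ± 0.23 over Sham and 3.53 ± 0.26 over MI. Nqo1, a quinone reductase induced by this receptor and by NRF2, was at 44.7, 51.5 and 51.9 CPM in Sham, 34.7, 34.8 and 31.4 in MI, and 81.7, 91.6 and 88.9 in Lip-1+MI, a rise of 0.82 ± 0.07 over Sham and 1.38 ± 0.07 over MI. In each of these genes the Lip-1+MI samples lay above every Sham and every MI sample. For Cyp1a1 the lack of overlap with Sham was a condition of its being named, and Aldh3a1 was taken for its small p against MI.

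The receptor and 3 more of its known targets were looked up after those values were seen. Cyp1b1, another cytochrome P450, was at 284, 306 and 312 CPM in Sham, 428, 470 and 472 in MI, and 825, 842 and 974 in Lip-1+MI, a rise of 1.55 ± 0.07 over Sham and 0.95 ± 0.07 over MI. Ahrr, the repressor of the receptor, rose by 2.06 ± 0.16 over Sham and 1.61 ± 0.15 over MI, to 12.4, 13.7 and 16.7 CPM. Tiparp, which also restrains it, rose by 0.90 over Sham and 0.23 over MI. Ahr, the receptor itself, fell by 0.74 ± 0.10 against Sham and by 0.41 ± 0.10 against MI, from 28.9, 29.1 and 28.7 CPM in Sham to 18.8, 14.0 and 19.2 CPM. In Fer-1+MI, where the compound and its dose differ, the means were 0.663 CPM for Cyp1a1, 1.45 for Aldh3a1, 44.9 for Nqo1, 494 for Cyp1b1, 3.51 for Ahrr, 85.4 for Tiparp and 20.8 for Ahr, set beside the Lip-1+MI means of 13.3, 13.9, 87.4, 880, 14.2, 89.0 and 17.3 without a test.

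**Figure D4:**
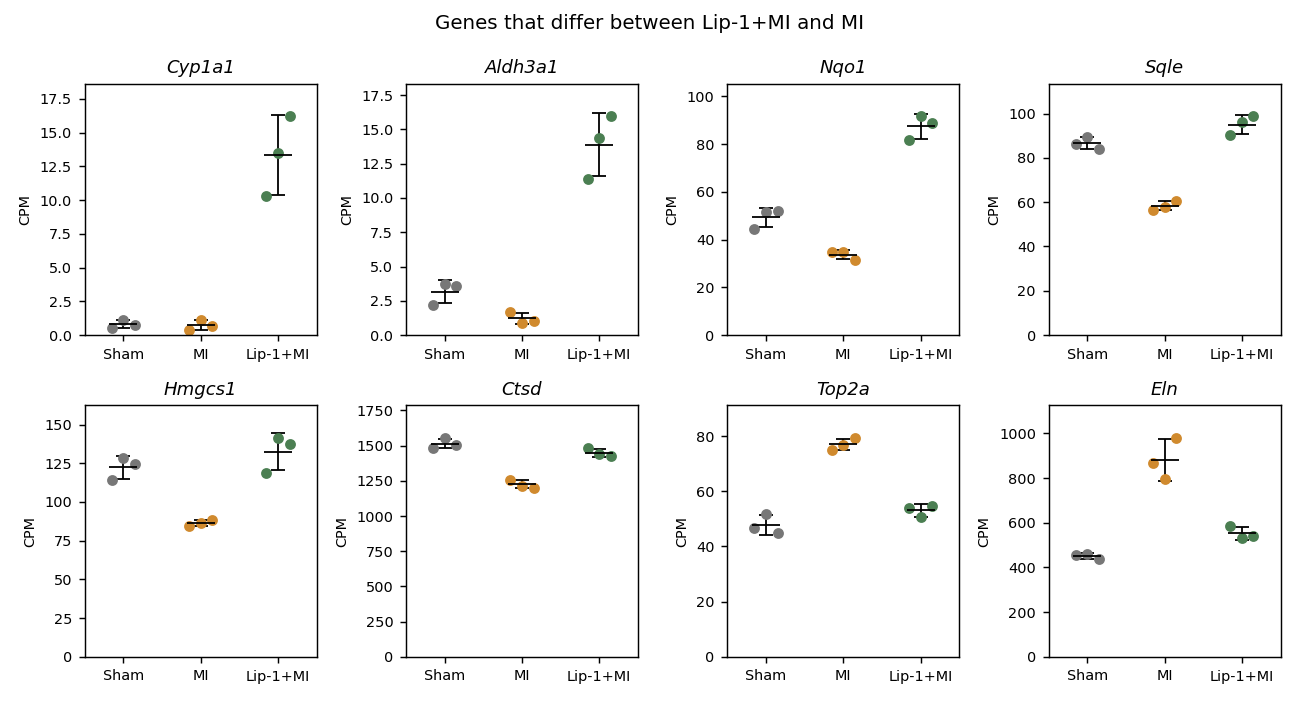
CPM (linear axis from 0) in each Sham, MI and Lip-1+MI sample for 8 genes that differed between Lip-1+MI and MI, with 3 points a group; horizontal marks are means and bars are SD. Cyp1a1, Aldh3a1 and Nqo1 stand above both other groups in Lip-1+MI, and Sqle, Hmgcs1, Ctsd and Top2a lie near their Sham points.

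Genes of ferroptosis moved in both directions. Of 50 listed genes, 48 were tested, and 20 rose and 10 fell against Sham (median 0.10). Over all genes 20.8% rose and 18.0% fell, and the lower share of the list is near that background. Against MI 9 were higher and 2 lower, beside 3.05% each way over all genes, and the lower share is again near it. Gpx4, on chromosome 7 at 12516352 to 12519154 on the minus strand, was at 99.2, 84.5 and 85.3 CPM in Sham, 62.7, 56.4 and 48.3 in MI, and 51.8, 79.0 and 76.1 in Lip-1+MI. All Lip-1+MI values lay below Sham, but replicate 1 lay apart from the other two, and the difference of -0.38 ± 0.15 missed the threshold (adjusted p = 0.080, edgeR). It passed with DESeq2 (adjusted p = 0.0438), with library size alone (0.0150), on FPKM (0.00969 and 0.0113) and without Lip-1+MI replicate 2 (0.0414). Its model overlaps that of Sbno2 on the other strand, and it is not stated whether the strand was used in counting.

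Slc7a11, the cystine importer, was at 7.36, 6.29 and 6.91 CPM in Sham, 13.2, 15.2 and 12.5 in MI, and 12.9, 11.7 and 11.8 in Lip-1+MI, a rise over Sham of 0.82 ± 0.10. Acsl4 was at 82.8, 86.4 and 86.0 CPM in Sham, 118, 106 and 114 in MI, and 134, 128 and 134 in Lip-1+MI, a rise of 0.63 ± 0.05 over Sham and 0.23 ± 0.05 over MI. Both groups of ligated samples lay above Sham for these genes. Gch1, which starts the synthesis of tetrahydrobiopterin, rose by 2.78 ± 0.14, and Gclc, the catalytic subunit for glutathione synthesis, by 0.96 ± 0.05. Sat1, a polyamine enzyme linked to ferroptosis, rose by 1.29 over Sham and 0.29 over MI. Chac1, which degrades glutathione, fell by 1.06 ± 0.22, from 7.91, 8.72 and 8.34 CPM in Sham to 5.61, 3.19 and 3.16 CPM, and by 0.86 ± 0.22 against MI. Aifm2, the ubiquinone reductase FSP1, fell by 0.30 against Sham.

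Iron and haem genes gave 10 of 43 higher and 11 lower (median 0.04), shares near those over all genes, with 7 lower without Sham replicate 3 or Lip-1+MI replicate 2. Tfrc, the transferrin receptor that brings iron into cells, was at 104, 101 and 112 CPM in Sham, 60.7, 66.5 and 56.2 in MI, and 74.4, 78.6 and 73.6 in Lip-1+MI. It fell by 0.48 ± 0.06 against Sham and rose by 0.30 ± 0.06 against MI, so the Lip-1+MI samples sat between the other groups. Hmox1, which breaks haem down and frees its iron, was at 546, 509 and 505 CPM in Sham, 992, 870 and 915 in MI, and 824, 807 and 779 in Lip-1+MI. It rose by 0.63 ± 0.05 over Sham and fell by 0.20 ± 0.05 against MI (adjusted p = 0.024, edgeR). The iron carriers Slc11a2, Slc39a14 and Slc25a37 rose by 0.86, 0.80 and 1.22. Fth1, the ferritin heavy chain, whose model overlaps that of Best1, missed the threshold (0.09 ± 0.05, adjusted p = 0.14, edgeR). Ftl1 and Slc40a1 have near-identical or additional loci in the files and are uncertain. Mitochondrial ferritin was not analysed here.

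Antioxidant genes rose in 13 of 40 cases and fell in 9 (median 0.02), against 20.8% and 18.0% over all genes, and the lower share is near that background. Sod2, the mitochondrial superoxide dismutase, and Txnrd1, the cytosolic thioredoxin reductase, rose by 0.98 and 0.88. Gpx3, a secreted glutathione peroxidase, and the metallothioneins Mt1 and Mt2A fell against Sham by 0.34, 0.38 and 0.22 and were higher than in MI by 0.34, 0.64 and 0.55, and the model of Mt1 overlaps that of Dclre1c. With library size alone the split was 14 higher and 16 lower for ferroptosis, 6 and 17 for iron and haem, and 7 and 19 for antioxidants.

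Extracellular matrix genes stayed above Sham, with 31 of 44 higher and 4 lower (median 0.25), beside 20.8% and 18.0% over all genes. Against MI 16 were lower and 5 higher, beside 3.05% each way over all genes. Eln, which encodes elastin, was at 456, 461 and 438 CPM in Sham, 869, 794 and 979 in MI, and 585, 532 and 542 in Lip-1+MI. It rose by 0.29 ± 0.06 over Sham and fell by 0.67 ± 0.06 against MI (adjusted p = 4.0e-06, edgeR). Col1a1, the main fibrillar collagen, was at 9975, 10378 and 9715 CPM in Sham, 15260, 15328 and 16455 in MI, and 11778, 12024 and 11679 in Lip-1+MI, a rise of 0.24 over Sham and a fall of 0.41 ± 0.04 against MI. The rises of Eln and Col1a1 over Sham were lost with library size alone (adjusted p = 0.137 and 0.139, edgeR) and with limma on FPKM (0.0614 to 0.108), and with library size alone the list had 17 higher and 8 lower. Fbln5 and Fbn2, which assemble elastic fibres, were lower than in MI by -0.65 and -0.46. Thbs1, a matricellular protein that activates TGF-beta, and Lox, which cross-links collagen, rose over Sham by 1.37 and 1.12 and did not pass against MI. Dcn, Mmp2 and Mgp were higher than in MI (0.68, 0.53 and 0.36).

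The largest falls against Sham named by the rule differed in level, as the Sham values of Lrrc10, Klf2 and Dhrs3 show. Lrrc10, a cardiomyocyte gene needed for normal contraction, was at 52.5, 55.2 and 57.2 CPM in Sham, 11.7, 10.4 and 9.31 in MI, and 14.6, 16.6 and 13.9 in Lip-1+MI, a fall of 1.87 ± 0.10 against Sham and a rise of 0.52 ± 0.10 over MI. Klf2, a flow-induced transcription factor of endothelium, fell by 1.89 ± 0.37, from 6.37, 5.83 and 5.69 CPM to 2.02, 0.926 and 1.86 CPM. Dhrs3, a retinaldehyde reductase, fell by 1.67, from 20.9, 20.8 and 18.3 CPM to 6.87, 5.51 and 6.43 CPM. The apelin receptor Aplnr, the heparan sulfotransferase Hs3st1, the vesicle GTPase Rab38, the orphan receptor Gpr22, and Jade2, Zbtb16 and Amer1 fell by 1.52 to 1.83.

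Of 25 tested heart muscle genes, 3 were higher and 7 lower (median -0.05), beside 20.8% and 18.0% over all genes. In both directions together 40% were called, against 38.8% over all genes. With library size alone 2 were higher and 16 lower. Nppb, Nppa and Myh7 below belong to a separate list of cardiac stress genes, of which 6 of 16 were higher and 1 lower. Nppb, the natriuretic peptide of stressed ventricle, was at 474, 515 and 462 CPM in Sham, 1037, 950 and 934 in MI, and 972, 1041 and 846 in Lip-1+MI, a rise of 0.98 ± 0.15. Nppa rose by 0.41 ± 0.06, and Myh6, the fast myosin heavy chain, fell by 0.32 ± 0.06. Myh7, the slow form, fell by 0.22, a call lost without any 1 of 5 of the 6 libraries (adjusted p = 0.0504 to 0.126, edgeR), the exception being Lip-1+MI replicate 2. The gap junction genes went in opposite directions. Gja1, connexin 43 of working muscle, rose by 0.95 ± 0.04, from 278, 295 and 285 CPM to 543, 575 and 540 CPM, with MI at 516, 551 and 551 CPM. Gja5, connexin 40 of atrium, conduction system and arteries, fell by 1.20 ± 0.09, from 66.6, 67.2 and 82.3 CPM to 30.5, 29.2 and 34.4 CPM, and lay above MI at 22.9, 25.1 and 22.0 CPM (0.43 ± 0.09). Ion channel and junction genes gave 9 of 35 higher and 10 lower (6 lower without Sham replicate 2), and calcium handling genes 6 of 22 each way, against 20.8% and 18.0% over all genes. With library size alone these were 6 and 13, and 3 and 10. Their members included Atp2a2, the SERCA pump, at -0.07 and its inhibitor Pln, which was lower (-0.35).

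Marker lists of other cell types moved beside these groups, and their part in the results was not tested. Their counts stand beside 20.8% higher and 18.0% lower than Sham over all genes. Of 19 macrophage markers tested, 8 were higher and none lower than Sham in edgeR (0 at an unadjusted p under 0.05, 0 with DESeq2, 2 with limma), with a summed level of 1105 to 1207 CPM in Sham and 1247 to 1283 CPM in Lip-1+MI, but with library size alone 2 were higher and 5 lower, and 4 or 5 were higher without Sham replicate 1 or Lip-1+MI replicate 1 or 2. Of the 12 listed neutrophil markers, 5 passed the filter and none was called in edgeR (0 at an unadjusted p under 0.05, 0 with DESeq2, 1 lower with limma), with sums of 4.38 to 5.68 CPM in Sham and 4.99 to 5.61 CPM in Lip-1+MI. Endothelial markers were lower in 6 of 14 cases (3 without Lip-1+MI replicate 1) and higher in 2, with sums of 734 to 752 CPM in Sham and 697 to 735 CPM in Lip-1+MI. Fibroblast and mural markers were each higher in 7 of 14 cases and lower in 2, and fibroblast sums were 13003 to 13588 CPM in Sham and 15962 to 16040 CPM in Lip-1+MI. With library size alone 2 fibroblast markers were higher and 2 lower, and Col1a1 makes up most of the fibroblast sum. Among the 7 higher fibroblast markers, Meox1, a transcription factor of activated fibroblasts, rose by 2.44, and Pdgfra, a receptor that marks fibroblasts, by 1.26. Of the other fibroblast markers 2 were lower and 5 were not called, and the median of the list was 0.20.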

How the data were processed

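RNA of 12 ventricle samples in 4 groups of 3 was sequenced as paired reads from stranded poly(A) libraries, per the labels' protocols. The authors deposited whole-number counts per gene, not normalised, and a table of FPKM values, which the authors scaled for gene length and depth. The submitters' processing notes name HISAT2 2.2.1, StringTie 2.1.6 and cutadapt 1.9, beside FastQC, edgeR and DESeq2, with no order. The genome build and the use of strand in counting are not stated in those sources. Symbols and coordinates came from the FPKM table by gene identifier, and FPKM served for levels against the tissue label and for an alternative test.

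Counts were filtered with filterByExpr (minimum count 10, minimum total 15), which kept 16910 of 32623 genes, scaled by TMM, and tested with robust quasi-likelihood F tests in edgeR 4.0.16 (R 4.3.3). A single model held the 12 samples and their group (8 residual degrees of freedom), with Benjamini-Hochberg adjustment over all tested genes and a threshold of 0.05. CPM use TMM-scaled library sizes, and ± after a log2 fold change is its SE. Depth was 45.5 to 60.8 M counts. Simulated counts of 16601 genes for Lip-1+MI against Sham held 100 genes with 2-fold changes and 100 with changes of 0.5 on the log2 scale. The fit recovered 90% and 62% of these, with 6.75% false among called genes, above the nominal share. Far fewer genes were changed there than were called in the data, so these rates need not hold for the data.

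The members and the 32 gene lists were chosen with earlier results of these data known. Of 802 distinct listed genes, 767 were found by symbol. Named genes are the 10 largest rises and 10 largest falls of called genes with a symbol, at least 5 CPM in the higher group and no overlap between groups, in each list up to 3 called members each way, taken by p, 20 genes fixed by name, and the 6 higher and 6 lower genes with the smallest p against MI; other list members are named to account for their list. No pair of replicates agreed within sampling noise. Same-numbered samples did not deviate together (correlations of -0.02 to 0.05), so replicate numbers were not taken as pairs. Alternatives used other scalings, filters, tests (DESeq2 1.42.0, limma 3.58.1 on log2 FPKM plus 1 or 0.1), sample sets, a replicate block and leaving out each library. Some listed genes are not reported here.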

Additional observations from a re-analysis of the deposited data

How the results depend on the processing

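With library size alone, Lip-1+MI against Sham gave 1994 higher and 5909 lower genes and MI against Sham 2414 and 5943. With limma on log2(FPKM + 1) those were 2075 and 5418, and 2439 and 5832, and with a pseudocount of 0.1 they were 2098 and 5281, and 2445 and 5753. Scaling by library size moved the median over all genes of Lip-1+MI against Sham to -0.19, so splits near zero fold change depend on it. Against Sham, Cycs then turned to -0.018 and Lamp2 to -0.019, neither past the threshold. Leaving out 1 library gave 661 to 1005 genes for Lip-1+MI against MI (328 to 522 higher, 313 to 483 lower) and 5560 to 5823 for Lip-1+MI against Sham. The cholesterol, lysosome and cell cycle counts against MI ranged from 16 to 19, 27 to 32 and 19 to 22 in these fits. With the replicate number as a replicate block the counts were 6841 for Lip-1+MI against Sham and 1272 against MI, and with DESeq2 they were 6664 and 1368. Of the values of named genes under the alternatives, 2771 kept their side of the threshold and, where called, their direction. Another 84 lost their call, 10 gained one, and 2 changed sign in a gene called in the main fit or the alternative. Changes of sign in genes called in neither fit are held within the 2771. Genes near the limit of 10 counts are limited by depth, and 3 samples a group limit the precision of every value.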

Other observations

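Genes of the complement list and others named by their p were among those that differed from MI. Lbp, the plasma protein that binds bacterial lipopolysaccharide, was at 333, 347 and 350 CPM in Sham, 144, 154 and 153 CPM in MI, and 295, 297 and 316 CPM in Lip-1+MI, which placed the treated samples between the other groups. It rose by 1.01 ± 0.04 against MI (adjusted p = 2.4e-10, edgeR) and fell by 0.18 ± 0.04 against Sham. Serping1, the inhibitor of the first complement protease complex, rose by 0.58 ± 0.04 against MI. Of 19 complement genes tested, 7 were higher and 2 lower than MI, beside 3.05% each way over all genes. C1qa and C1qc, which macrophages make, were the lower ones, by -0.31 and -0.49. Lcn2 lay above both groups, with 2875, 2714 and 3003 CPM in Lip-1+MI, 2102, 2467 and 2421 CPM in Sham and 1993, 1941 and 1955 CPM in MI.

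Vwf, an endothelial marker of the lists and the platelet-binding protein of that cell type, was at 36.7, 38.8 and 38.6 CPM in Lip-1+MI, 38.9, 34.9 and 36.8 CPM in Sham, and 58.0, 63.5 and 64.9 CPM in MI, a fall of 0.71 ± 0.06 against MI. F13a1, a transglutaminase that cross-links fibrin, fell by 0.82 ± 0.08 against MI and rose by 0.56 ± 0.08 over Sham. Immediate early genes rose in 14 of 23 cases over Sham and fell in 2. These and the list counts below stand beside 20.8% higher and 18.0% lower over all genes. Fosl1 and Ier3 rose by 2.41 and 2.27, and Egr1, an early growth response factor, rose by 0.77 over Sham and by 0.67 over MI. Heat shock and endoplasmic reticulum stress genes rose in 13 of 25 cases and fell in 2, against 3 and 3 with library size alone. Cell death genes rose in 10 of 23 cases and fell in 3, against 7 and 5 with library size alone. The death receptor Fas, the inflammasome sensor Nlrp3 and the caspase-8 regulator Cflar rose by 1.91, 1.70 and 1.77. Interferon genes rose in 9 of 28 cases and fell in 5, the latter near the 18.0% over all genes, and the split was 7 and 8 with library size alone and 3 fell without Sham replicate 2 or 3 or Lip-1+MI replicate 2 or 3. Members included the guanylate-binding protein Gbp5 at 2.52 and the transcription factor Stat2 at -0.47. Epicardial markers were higher in 6 of 9 cases (4 with library size alone) and lower in 1, with Krt18 at 2.18. Erythroid markers were lower in 3 of 6 and higher in 1, and conduction and neural markers were higher in 1 of 6 (0 higher and 1 lower with library size alone). In both lists the higher share is near that over all genes. Of 12 lymphocyte markers, 2 were tested, and Cd8a was lower at levels under 1 CPM, a call lost without Sham replicate 3 (adjusted p = 0.114, edgeR) or Lip-1+MI replicate 1 or 2 (0.0931 each). Cardiac stress genes rose in 6 of 16 cases and fell in 1, beside 20.8% higher and 18.0% lower over all genes. In both directions together 43.8% of them were called, against 38.8% over all genes.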
